A study of Mus musculus with 25 samples.

Results

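Diet was compared at one dose of carcinogen in 12 of the 25 liver libraries of the series, 8 of peritumoral tissue from mice on a Western diet (DEN PT-WD) and 4 of liver from mice on a control diet (DEN L-CD). The 2 groups were taken by their sample labels, and each library was 1 member of the comparison. Both groups were male C57BL/6J mice that received diethylnitrosamine (DEN), an alkylating liver carcinogen, at 25 mg/kg into the peritoneum when they were 2 weeks old, and both were fed their diet (Western AIN-76A or control AIN-93G) from weaning and sampled as adults. The peritumoral pieces were cut beside visible tumors, whereas any lesion in the control-diet mice could not be dissected out because of its size, and their pieces are labelled liver. Diet and nearness to a tumor therefore changed together between the groups and cannot be told apart, and small lesions may be part of the DEN L-CD pieces. The other libraries came from liver of mice without DEN on the control diet (nonDEN L-CD, 3) or the Western diet (nonDEN L-WD, 4), and from the tumors of the Western-diet mice (DEN T-WD, 6).

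Hepatocytes make cholesterol through a chain of enzymes from acetyl-CoA, and the transcription factor SREBP2 raises this chain when sterol in the cell is low and leaves it low when dietary cholesterol fills the cell. Excess sterol activates LXR receptors, which raise exporters such as Abcg1, Abcg5 and Abcg8. In a fat-loaded liver, macrophages recruited from blood take up lipid and carry markers such as Trem2 and Gpnmb, and stellate cells lay down collagen. Male mouse liver is set apart from female liver by pulses of growth hormone, which keep major urinary proteins (Mup) and other male-biased genes high and female-biased cytochromes low.

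Each of the 12 libraries held 23225238 to 38074411 expected counts, RSEM's estimate of reads per gene, with 7.2% to 10.06% in mitochondrial genes. The summed level of 12 hepatocyte markers was 71640 to 81690 TPM (transcript copies scaled to a fixed library total) in DEN L-CD and 52030 to 78150 TPM in DEN PT-WD, and no marker was called different. RNA of tissue beside the liver differed between libraries of both groups. The summed level of 18 pancreas acinar genes ran from 45.5 TPM in DEN L-CD 4 to 3219 TPM in DEN L-CD 3, and from 10.1 TPM in DEN PT-WD 8 to 8942 TPM in DEN PT-WD 1. The 12 adipose and muscle genes summed to 38.3 to 120.0 TPM and 36.3 to 151.2 TPM. None of the genes of these 2 lists was called, with 0 at an unadjusted p under 0.05 by edgeR and 0 called by DESeq2, and their part in the other results was not tested. The medians of the pancreas list and of the adipose and muscle list were 0.59 and -1.16, with 18 of 18 and 1 of 12 genes above 0. The hepatocyte markers had a median of -0.26, with 1 of 12 above 0, 4 at an unadjusted p under 0.05, 1 lower at the adjusted p alone (Serpina1c, -0.73) and 0 called by DESeq2, and Alb and Serpina1c did not overlap between the groups.

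A gene was called when its Benjamini-Hochberg adjusted p was at most 0.05 in edgeR's quasi-likelihood test and its level differed at least 2-fold, a log2 fold change of 1 or more. Of 15625 genes tested, 297 were called (1.90%), of which 238 were higher in DEN PT-WD (1.52%) and 59 lower (0.378%). Without the minimum fold, 1063 genes were higher (6.80%) and 587 lower (3.76%) at the same adjusted p. The libraries of the 2 groups did not overlap in 681 higher genes (4.36%) and 477 lower genes (3.05%). By edgeR's test 4267 of the 15625 genes had an unadjusted p under 0.05. The median log2 fold change over all genes was 0.02. These values are the background for every gene list, including its count at an unadjusted p under 0.05. Of the 35 lists 16 had a called member. In 18 of the called genes no DEN L-CD library held more than 3 counts, so their fitted folds rest on the small count that the model adds. In bulk tissue, more cells of a type and more RNA per cell cannot be told apart, and this holds for every cell marker. The count fell to 173 without DEN L-CD 3 and to 187 without DEN PT-WD 3 and 4 (chosen after the data were seen).

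**Figure D1:**
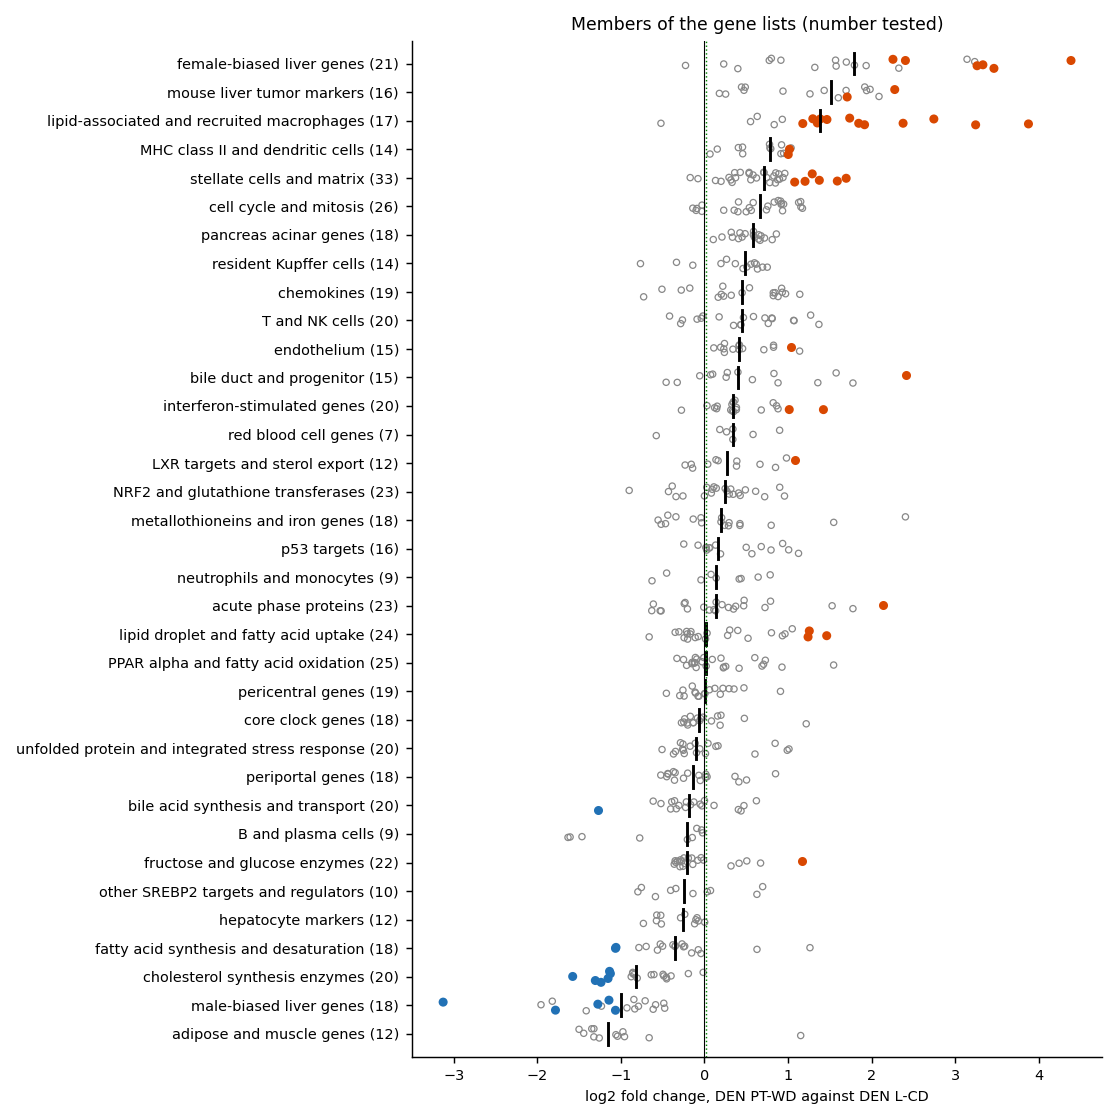
Log2 fold change of DEN PT-WD against DEN L-CD (x axis) for the tested members of each of the 35 gene lists (rows, with the number tested). Filled points were called (orange higher, blue lower), open points were not, black bars are list medians and the dotted line is the median of all genes, 0.02. Lipid-associated macrophage genes have 12 filled points to the right, and cholesterol synthesis enzymes 6 to the left.

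Of 20 cholesterol synthesis enzymes tested, none had a log2 fold change above 0, the median was -0.82, and 6 were called lower (Idi1, Fdps, Tm7sf2, Msmo1, Cyp51 and Nsdhl). A further 4 were lower at the adjusted p alone, among them Pmvk, Hsd17b7 and Ebp. To show what the called enzymes share in sequence, the 250 bases before the RefSeq start site of the 5 that have a window are printed 5′ to 3′ on the strand of the gene (build GRCm38.p6), with every CCAAT box, on either strand, in capitals (CCAAT, or ATTGG on the other strand). The box is bound by NF-Y, a general factor that is known to act together with SREBP proteins.
Idi1, chr13:8885356-8885605, plus strand: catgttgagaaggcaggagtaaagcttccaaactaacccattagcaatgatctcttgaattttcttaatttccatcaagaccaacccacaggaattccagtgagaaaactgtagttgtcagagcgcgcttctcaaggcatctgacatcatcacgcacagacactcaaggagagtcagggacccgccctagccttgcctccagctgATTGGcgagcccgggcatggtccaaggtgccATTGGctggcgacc
Tm7sf2, chr19:6067851-6068100, minus strand: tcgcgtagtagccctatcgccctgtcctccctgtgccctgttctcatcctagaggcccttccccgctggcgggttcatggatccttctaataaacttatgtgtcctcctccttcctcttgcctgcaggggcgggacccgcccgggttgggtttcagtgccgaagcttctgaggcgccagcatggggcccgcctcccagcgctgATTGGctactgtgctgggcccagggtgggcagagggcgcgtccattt
Msmo1, chr8:64733579-64733828, minus strand: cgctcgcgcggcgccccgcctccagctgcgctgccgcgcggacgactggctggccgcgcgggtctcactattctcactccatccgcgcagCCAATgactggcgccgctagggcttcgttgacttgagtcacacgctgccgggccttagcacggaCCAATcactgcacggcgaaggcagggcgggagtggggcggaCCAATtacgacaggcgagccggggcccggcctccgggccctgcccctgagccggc
Cyp51, chr5:4104698-4104947, minus strand: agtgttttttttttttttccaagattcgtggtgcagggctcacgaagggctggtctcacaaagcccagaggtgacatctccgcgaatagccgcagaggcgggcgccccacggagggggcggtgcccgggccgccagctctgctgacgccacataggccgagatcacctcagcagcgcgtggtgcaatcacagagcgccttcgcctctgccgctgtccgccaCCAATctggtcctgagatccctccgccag
Nsdhl, chrX:72918271-72918520, plus strand: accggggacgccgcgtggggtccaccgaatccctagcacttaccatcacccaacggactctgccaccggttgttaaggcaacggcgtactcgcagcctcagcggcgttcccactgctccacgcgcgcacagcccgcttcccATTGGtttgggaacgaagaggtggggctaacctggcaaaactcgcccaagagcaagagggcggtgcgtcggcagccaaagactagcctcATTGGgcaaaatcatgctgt
The window held 2 boxes in Idi1, 1 in Tm7sf2, 3 in Msmo1, 1 in Cyp51 and 2 in Nsdhl. Only 1 window per gene is printed, that of lowest coordinate where RefSeq gives several starts. By the GENCODE gene positions, the Tm7sf2 window lies inside the gene, and those of Idi1 and Msmo1 lie partly inside. Of the 15 cholesterol synthesis genes with a window, 14 held a CCAAT box (93.3%), against 37.5% of the 27025 symbols with a window. A sterol element written TCACNCCAC, searched on both strands, stood in 1 of the 15 genes (Hmgcs1, 6.67%) and in 1.22% of all symbols. These matches are letters in a window, not evidence of binding.

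Idi1 (chr13:8885501-8892451, GRCm38), the isopentenyl diphosphate isomerase, held 3469, 4115, 6973 and 4231 normalized counts in DEN L-CD 1 to 4. In DEN PT-WD it ran from 1144 to 2434 with a median of 1491, so no peritumoral library reached the lowest control-diet one. The group means were 4697 ± 1554 (SD, n = 4) and 1575 ± 433 (SD, n = 8), a log2 fold change of -1.58 (SE 0.20, adjusted p = 0.00029). Tm7sf2 (chr19:6062821-6068373), a sterol reductase late in the pathway, held 1079, 1289, 1634 and 1358 against 368 to 724 with a median of 558, again without overlap. Its log2 fold change was -1.24 (SE 0.15, adjusted p = 0.00017), tied with Gpat3 for the smallest adjusted p of all genes. Fdps, the farnesyl diphosphate synthase, held 2230 in DEN L-CD 1 and 4013 to 6357 in the other control-diet libraries, against 904 to 2653, so the groups overlapped at one control-diet library (log2 fold change -1.31, SE 0.30, adjusted p = 0.0092). Fdps was not called without DEN L-CD 3 or with the replicate number as a block, and shared 26.2% of its 50-base words with other annotated genes. Msmo1 fell by 1.15 (SE 0.19, adjusted p = 0.0012) and Cyp51 by 1.14 (SE 0.24, adjusted p = 0.0054) on the log2 scale, both sterol demethylation enzymes, and neither overlapped between the groups. Nsdhl, the next enzyme of that step, fell by 1.13 (SE 0.24, adjusted p = 0.0065). DEN L-CD 3 had the highest value of each of these 6 enzymes, and without that library Idi1 and Tm7sf2 were called and the other 4 were not. Msmo1 then fell short by its fold alone (-0.98), as its adjusted p was at most 0.013 in every alternative.

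Of 10 other SREBP2 targets and regulators none was called by edgeR (4 at an unadjusted p under 0.05) or by DESeq2, and the median was -0.24. Of the 10, 4 had a log2 fold change above 0, the highest being 0.70, and 1 was higher and none lower at the adjusted p alone. The members with the highest levels were Insig2 (log2 fold change 0.03, SE 0.23, adjusted p = 0.94) and Insig1, which holds SREBP in the endoplasmic reticulum (-0.80, SE 0.26, adjusted p = 0.0505). Of 12 LXR targets and sterol exporters the median was 0.27 and Abcg1 was called higher, with 4 more at the adjusted p alone, Abcg5, Abcg8, Apoc2 and Scarb1. Abcg1, a cholesterol exporter of macrophages and other cells, held 177, 335, 183 and 181 in DEN L-CD against 307 to 621 with a median of 486 (log2 fold change 1.08, SE 0.19, adjusted p = 0.0020), and DEN L-CD 2 lay inside the peritumoral range. Its call was lost without DEN L-CD 1 and without DEN PT-WD 8. Abcg5 and Abcg8 form the pump that moves cholesterol into bile. Abcg5 held 1653 to 2133 in DEN L-CD and 2926 to 5873 in DEN PT-WD (log2 fold change 0.98, SE 0.14, adjusted p = 0.00050), just under the minimum fold, and Abcg8 rose by 0.66 (SE 0.16, adjusted p = 0.012).

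Of 24 lipid droplet and fatty acid uptake genes 3 were called higher, Vldlr, Plin4 and Lpl, while the list median was 0.02, the same as for all genes. Lpl, which releases fatty acids from circulating triglyceride, held 1072, 877, 1035 and 1039 in DEN L-CD against 1346 to 3194 with a median of 2364 and no overlap (log2 fold change 1.24, SE 0.23, adjusted p = 0.0031). Plin4, a lipid droplet coat protein, held 359 to 539 against 526 to 1750 (1.25, SE 0.32, adjusted p = 0.015), and was not called without DEN L-CD 3. Vldlr, a lipoprotein receptor, had means of 76.1 ± 25.1 (SD, n = 4) and 210.5 ± 99.8 (SD, n = 8), a log2 fold change of 1.46 (SE 0.44, adjusted p = 0.036) whose call was lost under 8 of 19 alternatives. Cd36, a fatty acid transporter, rose by 0.93 (SE 0.30, adjusted p = 0.046), below the minimum fold. Of 18 fatty acid synthesis genes the median was -0.35 and 2 were called lower. Acss2, which makes acetyl-CoA from acetate and is a known SREBP target, held 2712 to 6407 against 1515 to 4703 (-1.06, SE 0.26, adjusted p = 0.013) and lost its call under 6 alternatives. Elovl3, an elongase that is also male-biased, held 1980 to 2326 against 618 to 1371 without overlap (-1.06, SE 0.22, adjusted p = 0.0054), and was not called without DEN PT-WD 2. The number of this list called was 0 (without DEN PT-WD 2) to 4 when any 1 library was left out, and DESeq2 called 2 lower and 1 higher. None of 25 PPAR alpha and fatty acid oxidation genes was called (median 0.02, 5 at an unadjusted p under 0.05, 0 by DESeq2). Among 20 bile acid genes the median was -0.19 and the transporter Slco1a1, also male-biased, was called lower. Of 22 fructose and glucose genes the median was -0.21 and Hk2, a hexokinase that adult hepatocytes hold at a low level, was called higher, at 58.6 to 100 against 102.5 to 209.9 (1.17, SE 0.28, adjusted p = 0.011).

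Gpat3 (chr5:100845713-100899102), an acyltransferase that starts glycerolipid synthesis, gave the smallest adjusted p among higher genes. It held 146.4, 131.3, 81.3 and 122.1 in DEN L-CD against 264 to 485 with a median of 410, a log2 fold change of 1.67 (SE 0.20, adjusted p = 0.00017) that was called under all 19 alternatives. Untreated liver held 265 on the control diet and 252 on the Western diet. The next smallest adjusted p values among higher genes belonged to Plvap, a protein of endothelial diaphragms (0.83, SE 0.11, adjusted p = 0.00029), and Phactr2, a phosphatase and actin regulator (0.77, SE 0.10, adjusted p = 0.00029). They were followed by the integrin subunit Itgb5 (0.48, SE 0.07, adjusted p = 0.00030) and Fbn1, the microfibril protein fibrillin (0.89, SE 0.12, adjusted p = 0.00033). These 4 did not overlap between the groups and stayed below a 2-fold difference.

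**Figure D2:**
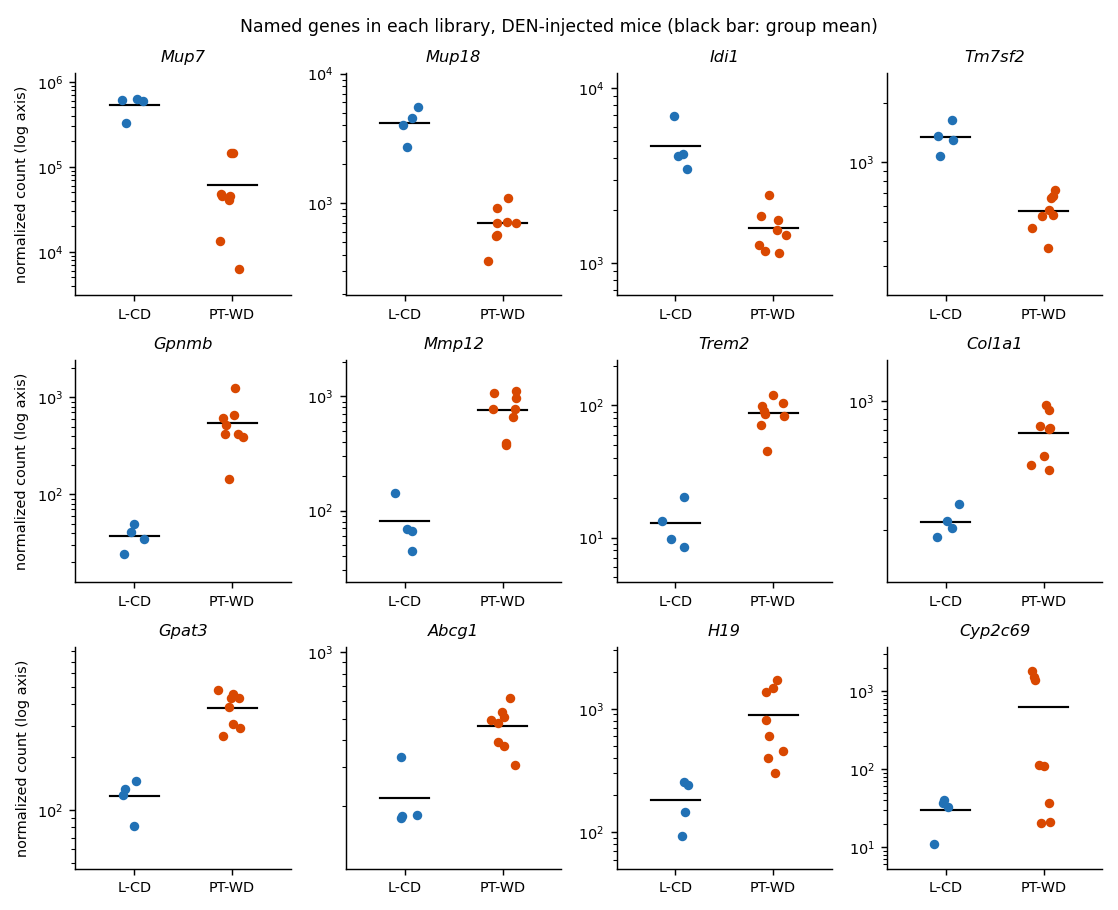
Normalized counts (y axis, log scale) of 12 genes in the 4 DEN L-CD libraries (blue) and the 8 DEN PT-WD libraries (orange), 1 point per library with the group mean as a black bar. Idi1 ran from 3469 to 6973 in DEN L-CD and from 1144 to 2434 in DEN PT-WD, whereas Cyp2c69 had 3 peritumoral libraries far above the others.

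Of 17 genes of lipid-associated and recruited macrophages tested, 12 were called higher and none lower, against 1.52% of all genes called higher, and the median was 1.39. With no minimum fold 15 were higher, 16 had a log2 fold change above 0, and in 10 the groups did not overlap. The whole list summed to 233 to 284 TPM in DEN L-CD and 291 to 908 TPM in DEN PT-WD. Between 11 and 14 of the 17 were called when any 1 library of the 12 was left out. Gpnmb (chr6:49036546-49070929), a lysosomal glycoprotein of lipid-laden macrophages, held 35, 41.0, 49.8 and 24.4 in DEN L-CD and 143.6 to 1246 with a median of 471 in DEN PT-WD. This was the largest increase among the genes with at least 100 normalized counts and no overlap (log2 fold change 3.88, SE 0.67, adjusted p = 0.0020), and DEN PT-WD 7 stood at the top and DEN PT-WD 6 at the bottom of the group. Mmp12 (chr9:7344381-7369499), macrophage elastase, held 141.1, 44.6, 66.8 and 68.4 against 375 to 1106 with a median of 778 (3.24, SE 0.46, adjusted p = 0.00036). Trem2 (chr17:48346401-48354147), a lipid receptor of macrophages, held 20.1, 8.43, 13.3 and 9.77 against 45.2 to 120.7 with a median of 88.6 (2.74, SE 0.39, adjusted p = 0.00036). Neither of the last 2 overlapped, and DEN PT-WD 6 was the lowest peritumoral library for both.

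The remaining members of this list ranged widely in size. Mmp13, a collagenase, rose by 2.38 (SE 0.45, adjusted p = 0.0032), and the integrin subunit Itgax, which marks recruited macrophages and dendritic cells, by 1.92 (SE 0.30, adjusted p = 0.00098). Itgax held 36.2 to 48.8 in DEN L-CD and 97.3 to 224.3 in DEN PT-WD. The beta-glucan receptor Clec7a rose by 1.84 (SE 0.30, adjusted p = 0.0012) and the chemokine receptor Cx3cr1 by 1.74 (SE 0.41, adjusted p = 0.010), both without overlap. Spp1 (osteopontin), Cd63, Atp6v0d2, Ccr2 and Lgals3 were called higher with log2 fold changes of 1.18 to 1.46. Spp1 and Lgals3 are also made by bile duct cells and tumor cells, and Cd63 by many cells. Cd9, Ctss and Cd68 passed the adjusted p alone. Of 14 genes of resident Kupffer cells none was called (6 at an unadjusted p under 0.05, and 0 called by DESeq2), 2 were higher at the adjusted p alone (Clec1b and Csf1r), 11 were above 0 and up to 2 were called when any 1 library was left out. The median was 0.48, and their sum was 354 to 575 TPM in DEN L-CD and 439 to 922 TPM in DEN PT-WD. Clec4f, a lectin that marks the resident cells, held 1815 to 2435 and 1883 to 3472 (log2 fold change 0.26, SE 0.17, adjusted p = 0.31). Cd5l and Slc40a1, the members of highest level, had log2 fold changes of 0.75 (SE 0.26, adjusted p = 0.063) and 0.20 (SE 0.19, adjusted p = 0.53). The difference between the 2 macrophage lists was not tested.

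Among 14 genes of antigen presentation and dendritic cells, every log2 fold change was above 0, the median was 0.79 and 2 were called, H2-DMb1 (1.02, SE 0.26, adjusted p = 0.015) and H2-DMa (1.00, SE 0.20, adjusted p = 0.0047), which load peptide onto class II molecules. Both lie at the minimum fold, and H2-DMa lost its call under 13 of 19 alternatives and H2-DMb1 under 7. The number of the list called was 0 to 5 when any 1 library was left out, and 0 with the replicate block. At the adjusted p alone 7 were higher, among them Cd74, H2-Aa, H2-Ab1, H2-Eb1 and the class II regulator Ciita. Of 20 interferon-stimulated genes, Oas3 (1.42, SE 0.39, adjusted p = 0.021) and Ifi44 (1.01, SE 0.30, adjusted p = 0.036) were called, with the calls lost under 4 and 15 alternatives, and the median was 0.35. No gene was called among 20 T and NK cell genes, 9 B and plasma cell genes, 9 neutrophil and monocyte genes or 19 chemokines, with medians of 0.45, -0.20, 0.14 and 0.45. At an unadjusted p under 0.05 these 4 lists had 2, 3, 2 and 8 genes, and DESeq2 called 1 T cell gene and 1 B cell gene. The T cell genes of highest level, Themis and Ccl5, had log2 fold changes of 1.07 (SE 0.39, adjusted p = 0.074) and 0.76 (SE 0.42, adjusted p = 0.25). Themis did not move with its list in untreated liver, where its mean was 11.2 on the control diet and 605 on the Western diet. The list median there was 0.45, and Themis was the 1 gene called. Which cells held Themis RNA was not tested. Ighm held 7345 in DEN L-CD 1 against 760 to 1594 in the other control-diet libraries and 383 to 2188 in DEN PT-WD. Sdc1 in the B and plasma cell list (-0.02), which hepatocytes also make, Plac8 (0.79) and Fcgr4 (0.44) among neutrophil and monocyte genes, and Cxcl12 (-0.28) and Ccl9 (0.16) among chemokines were the other genes of highest level. Plac8 was higher at the adjusted p alone (0.018), as were 2 of the chemokines.

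Of 33 stellate cell and matrix genes 31 had a log2 fold change above 0, the median was 0.71, 20 were higher at the adjusted p and 6 at the minimum fold as well. In 16 of the 33 the groups did not overlap. The called genes were Col5a2, Col1a1, Col3a1, Timp1, Col1a2 and Loxl2, that is 4 fibrillar collagen chains, an inhibitor of collagen breakdown and a collagen crosslinking enzyme. Col1a1 (chr11:94936224-94953042) held 277.9, 207.2, 183.3 and 224.6 in DEN L-CD and 421.5 to 956.1 with a median of 712 in DEN PT-WD (log2 fold change 1.59, SE 0.28, adjusted p = 0.0023). Col3a1 held 738 to 1033 against 1642 to 2817 (1.37, SE 0.22, adjusted p = 0.0011). Col5a2 had the largest change of the list, 1.70 (SE 0.30, adjusted p = 0.0025), with 86.7 to 125.2 against 134.3 to 632.9. None of these 3 overlapped between the groups. Timp1 was low, at 6.07 to 17.1 against 13.9 to 35.5 (1.29, SE 0.37, adjusted p = 0.029), and its call was lost under 7 alternatives. Between 5 and 7 of the list were called when any 1 library was left out.

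All 15 endothelial genes tested had a log2 fold change above 0, 9 passed the adjusted p, and the median was 0.42. Esm1, a marker of endothelial tip cells, was the called member (1.04, SE 0.26, adjusted p = 0.014) and lost its call under 7 alternatives. Vwf and Plvap, with log2 fold changes of 0.71 and 0.83, had the smallest adjusted p values of the list. Among 15 bile duct and progenitor genes Tspan8 was called (2.41, SE 0.66, adjusted p = 0.022), with a list median of 0.40, and its call was lost under 4 alternatives, without DEN L-CD 1, 2 or 3 and without DEN PT-WD 3 and 4. DESeq2 and the replicate block each called 3 of this list, and 0 to 3 were called when any 1 library was left out.

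All 16 genes tested that are known from mouse liver tumors had a log2 fold change above 0 and the median was 1.52, but 2 were called by edgeR and 8 by DESeq2. With edgeR the number called was 0 (without DEN L-CD 3) to 8 when any 1 library was left out, and 7 with the replicate block. H19 (chr7:142575529-142578143), an imprinted non-coding RNA of fetal liver and liver tumors, held 239.7, 147.0, 93.5 and 255.2 in DEN L-CD and 301 to 1712 with a median of 707 in DEN PT-WD (2.28, SE 0.57, adjusted p = 0.014). It did not overlap between the groups, and its call was lost without DEN L-CD 3. Cdkn3, a cell cycle phosphatase, held 3.18 to 6.10 against 5.13 to 25.2 (1.71, SE 0.52, adjusted p = 0.038), and its call was lost under 11 alternatives. Afp, the fetal albumin-like protein, held 142.1, 57.8, 89.8 and 452.9 in DEN L-CD and 92.6 to 1706 in DEN PT-WD, highest in DEN PT-WD 3 (1.69, SE 0.57, adjusted p = 0.058). Gpc3, a surface proteoglycan of liver tumors, held 669 in DEN L-CD 4 against 105 to 194 in the other control-diet libraries, and 150.5 to 2986 in DEN PT-WD (1.94, SE 0.77, adjusted p = 0.10). Summed over the 16 genes, DEN PT-WD 3 and 4 held 548 and 527 TPM, DEN PT-WD 6 held 64.0, DEN L-CD 4 held 161 and the other control-diet libraries 37.99 to 75.15. Tspan8 was also highest in DEN PT-WD 3 and 4, at 3165 and 1904, and ran from 155.9 to 277.1 in DEN L-CD. These 2 libraries were chosen for their tumor markers, and without them 1 of the 16 tumor marker genes was called and Tspan8 was not. In the same fit 12 macrophage genes, 5 matrix genes and 6 cholesterol enzymes were called. The macrophage sum was also highest in DEN PT-WD 3 (908 TPM) and lowest in DEN PT-WD 6 (291 TPM), and the tumors held 1142 to 1748 TPM of it. The part of tumor tissue in the macrophage values was not tested. Of 26 cell cycle genes none was called (16 at an unadjusted p under 0.05, and 0 by DESeq2), with a median of 0.66. Of the 26, 21 had a log2 fold change above 0, the highest being 1.17, and 1 was higher at the adjusted p alone. Up to 3 were called when any 1 library was left out. Pcna and Ccnd1, of highest level there, had log2 fold changes of -0.09 (SE 0.08) and -0.10 (SE 0.28).

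**Figure D3:**
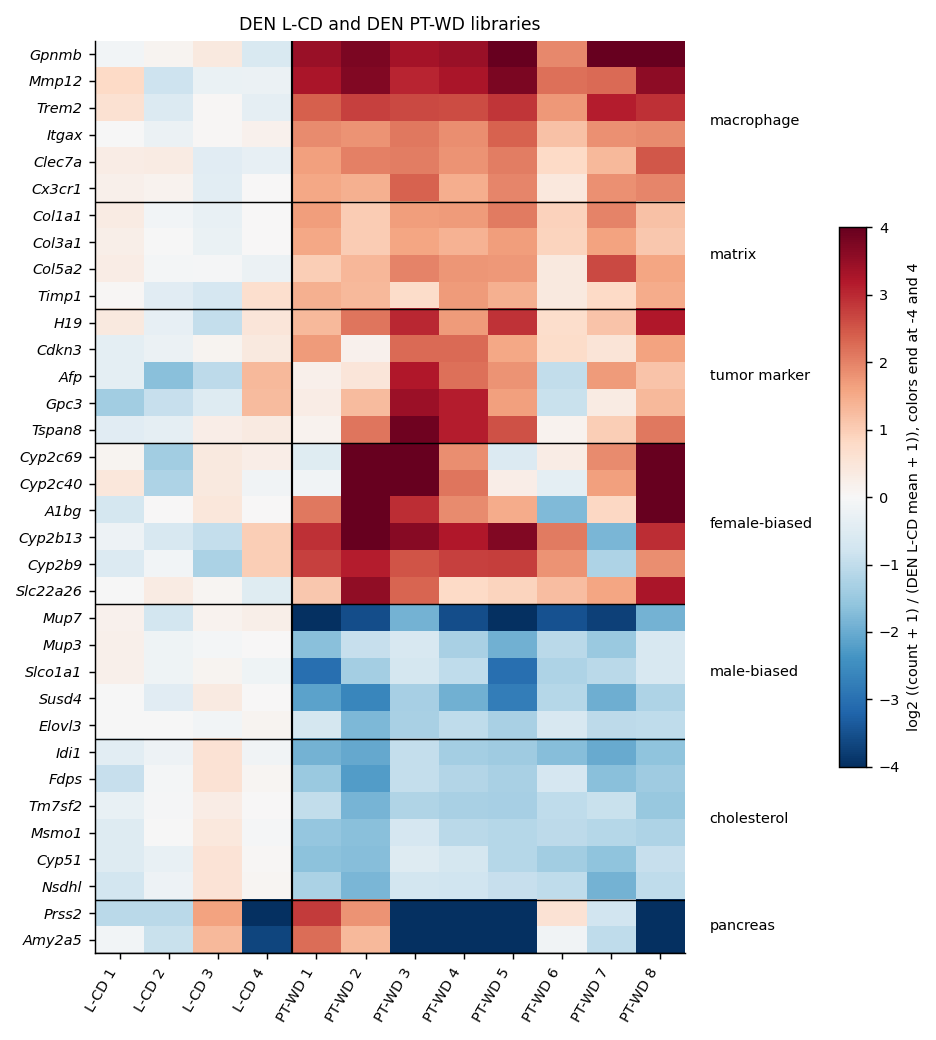
Log2 ratio of each library's normalized count plus 1 to the DEN L-CD mean plus 1 (color, ending at -4 and 4) for 34 genes (rows) in the 4 DEN L-CD and 8 DEN PT-WD libraries (columns). Macrophage and cholesterol genes changed color in nearly all peritumoral libraries, whereas Afp, Gpc3 and Tspan8 were highest in DEN PT-WD 3 and 4, and Cyp2c69 and Cyp2c40 in DEN PT-WD 2, 3 and 8.

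The largest decreases lay in 1 gene cluster. Of the called genes with at least 100 normalized counts and no overlap, the 10 with the largest decrease were 9 major urinary protein genes and Gm13773, a non-coding transcript, and all 10 lie on chromosome 4. Mup genes encode pheromone-binding proteins that male liver secretes in large amounts. Counts of single Mup genes are uncertain, because between 4.0% and 100% of the 50-base words of each member also occur in other annotated transcripts (86.7% in Mup7, 89.6% in Mup18, 19.3% in Mup21, 13.3% in Mup3). The likeness extends before the gene. To show it, the stretch of the 250 bases before the RefSeq start of Mup7 that is covered by the window of Mup18 is printed 5′ to 3′ (GRCm38.p6, minus strand), with the aligned stretch of Mup18, Mup3 and Mup21 and, in capitals, each base that differs from Mup7.
Mup7, chr4:60070476-60070600: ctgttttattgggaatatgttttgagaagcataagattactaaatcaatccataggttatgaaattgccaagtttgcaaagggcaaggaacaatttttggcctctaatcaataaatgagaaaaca
Mup18, chr4:61674220-61674344: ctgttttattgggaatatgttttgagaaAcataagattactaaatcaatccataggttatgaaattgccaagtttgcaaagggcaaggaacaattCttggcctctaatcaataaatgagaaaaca
Mup3, chr4:62087399-62087522: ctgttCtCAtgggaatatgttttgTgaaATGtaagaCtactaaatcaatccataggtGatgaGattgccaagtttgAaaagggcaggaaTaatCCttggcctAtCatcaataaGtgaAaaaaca
Mup21, chr4:62150917-62151040: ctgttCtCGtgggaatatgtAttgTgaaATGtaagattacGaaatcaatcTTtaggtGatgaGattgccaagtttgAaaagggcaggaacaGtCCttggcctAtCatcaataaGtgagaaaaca
Over this stretch Mup18 differs from Mup7 at 2 bases, Mup3 at 18 and Mup21 at 20, and the stretches of Mup3 and Mup21 are also shorter, at 124 bases against 125, which capitals cannot mark. Over the whole overlap of the windows, 98.4% of aligned bases were identical in Mup18, 84.6% in Mup3 and 82.9% in Mup21.

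Because reads can move between near-identical copies, the family was also summed (a choice made after its values were seen, so no test is given). All 22 Mup genes together took 9.97%, 7.46%, 10.2% and 10.8% of the expected counts in DEN L-CD 1 to 4. In DEN PT-WD the share ran from 2.17% to 6.05% with a median of 4.25%, below each control-diet library. The means were 9.60% ± 1.47 (SD, n = 4) and 4.14% ± 1.51 (SD, n = 8). Untreated liver held 8.93% to 13.5% on the control diet and 5.98% to 11.8% on the Western diet, 2 ranges that overlap, and the tumors 0.988% to 2.25%. Of 21 Mup genes tested, 20 had a log2 fold change below 0 and 13 were called lower. Mup7 (chr4:60066469-60070475) held 604541, 324634, 592812 and 625287 in DEN L-CD and 6248 to 145940 with a median of 45770 in DEN PT-WD (log2 fold change -3.13, SE 0.70, adjusted p = 0.0077), lowest in DEN PT-WD 5 and 1. Mup18 (chr4:61670177-61674136) had the smallest adjusted p of the family, with 4029, 2697, 4516 and 5491 against 357 to 1104 (-2.58, SE 0.34, adjusted p = 0.00029). The other named members, Mup12, Mup1, Mup8, Mup14, Mup2, Mup17 and Mup21, fell by 1.88 to 2.72 on the log2 scale, and the call of Mup17 was lost under 8 alternatives. Gm13773 (chr4:60502841-60521169) lies in the cluster and overlaps the pseudogene Mup-ps6. It held 91.0 to 137.9 against 19.5 to 41.3 (-2.01, SE 0.28, adjusted p = 0.00030).

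**Figure D4:**
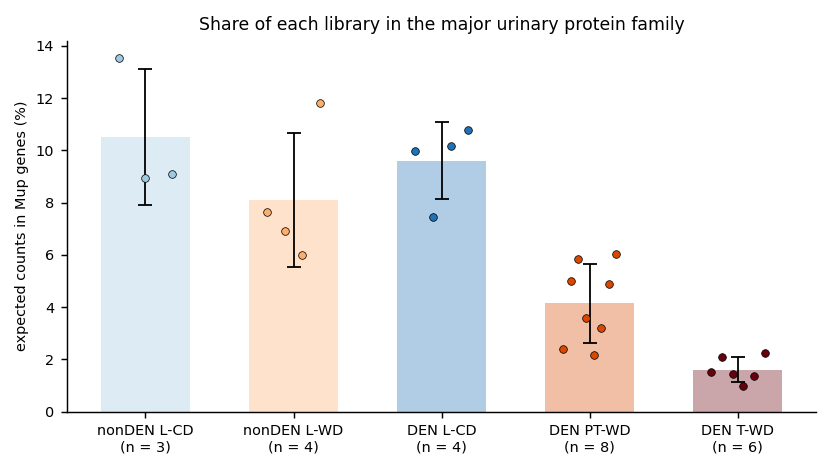
Share of expected counts in the 22 Mup genes (y axis, percent) in each library of the 5 groups, with the mean as a bar and the SD as the error bar. The DEN PT-WD libraries, at 2.17% to 6.05%, lie below the DEN L-CD libraries, at 7.46% to 10.8%, and above most of the tumors.

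Of the 18 male-biased liver genes tested, 3 of which are Mup genes, none had a log2 fold change above 0, the median was -0.996, and 5 were called lower (Mup7, Susd4, Slco1a1, Mup3 and Elovl3). The number called was 3 to 8 when any 1 library was left out, 9 with the replicate block and 11 without DEN PT-WD 7 and 8. Susd4 (chr1:182763860-182896591), a complement inhibitor, held 546, 404, 704 and 552 in DEN L-CD and 80.5 to 249 with a median of 142.5 in DEN PT-WD (-1.78, SE 0.26, adjusted p = 0.00047), and was called under every alternative. Slco1a1, an organic anion transporter, held 17890 to 23436 against 2485 to 13152 (-1.28, SE 0.40, adjusted p = 0.041) and lost its call under 10. Mup3 held 217049 to 283580 against 64868 to 157816 (-1.14, SE 0.29, adjusted p = 0.014) and was not called without DEN L-CD 1. Nudt7, a peroxisomal CoA hydrolase, was among the 5 lower genes of smallest adjusted p, with 14058 to 16662 against 6369 to 10211 and no overlap (-0.93, SE 0.12, adjusted p = 0.00029), below the minimum fold. Hsd3b5, a steroid dehydrogenase, held 2354 to 4720 against 55.8 to 2044 without overlap and did not pass (-1.96, SE 0.69, adjusted p = 0.067).

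Of 21 female-biased genes tested, 20 had a log2 fold change above 0, the median was 1.79 and 6 were called higher, Cyp2c69, A1bg, Cyp2b13, Cyp2c40, Cyp2b9 and Slc22a26, and in 1 of the 21 the groups did not overlap. Cyp2c69 held 10.8 to 40.1 in DEN L-CD. Its median in the peritumoral group was 112.7 and its highest value 1802, and DEN PT-WD 2, 3 and 8 stood far above the rest, while DEN PT-WD 1, 5 and 6 lay within the control-diet range (4.39, SE 1.31, adjusted p = 0.035). Its call was lost under 10 alternatives. Cyp2c40 followed the same libraries, with 45.8 to 149.5 against 83.4 to 2800 (3.26, SE 0.93, adjusted p = 0.027), and lost its call under 6 alternatives. These 2 cytochromes share 54.3% and 60.3% of their 50-base words with other genes of their family, so their counts are uncertain one by one. A1bg held at most 3 counts in each DEN L-CD library. In DEN PT-WD it ran from 0 in library 6 to 82.0 and 70.0 normalized counts in libraries 2 and 8, with a median of 12.6, so the groups overlapped. Its mean there was 27.0, at least 7.66-fold higher than 3 counts per library, and its call was lost under 11 alternatives. Cyp2b13 and Cyp2b9 were higher in 7 of the peritumoral libraries and low in DEN PT-WD 7, with the call of Cyp2b13 lost under 4 alternatives and Cyp2b9 at 114.1 to 538.4 against 115.6 to 2397 (2.40, SE 0.73, adjusted p = 0.038). Slc22a26, of the organic anion transporter family, held 22.0 to 39.8 against 55.7 to 374.2 and did not overlap (2.26, SE 0.60, adjusted p = 0.020), and lost its call under 3. The number of called female-biased genes fell to 0 when DEN L-CD 1 was left out and to 1 without DEN PT-WD 3 and 4.

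Of the other named genes, Fam83a, a scaffold protein, and Ttc39a, a tetratricopeptide repeat protein, were among the 10 largest increases, at 2.19 (SE 0.44, adjusted p = 0.0044) and 1.99 (SE 0.34, adjusted p = 0.0020), without overlap and called under every alternative. Orm3, an acute phase glycoprotein, was the called member among 23 acute phase genes, at 47.3 to 90.2 against 44.7 to 774.5 (2.13, SE 0.51, adjusted p = 0.011), and the median of that list was 0.14. Gm10222, a copy of mitochondrial sequence on chromosome 1, had one of the 5 smallest adjusted p values among lower genes (0.00029), but all of its 50-base words also occur in the mitochondrial gene mt-Nd4l. It held 242.9, 0, 7291 and 3.66 in DEN L-CD, so 2 of the 4 control-diet libraries lay at or near the peritumoral values of 0 to 3.08, and no fold is given. No gene was called among the lists of pericentral (19 tested, median 0.00), periportal (18, -0.13), NRF2 and glutathione transferase (23, 0.25), unfolded protein (20, -0.10), p53 (16, 0.16), clock (18, -0.07), metallothionein and iron (18, 0.20) and red blood cell genes (7, 0.34). The members of highest level in these lists were Cyp2e1, Aldh1a1, Alb, Ass1, Gstm1, Gsta3, Hsp90b1, Hspa5, Trp53inp1, Ccng1, Bhlhe40, Dbp, Trf, Ftl1, Hbb-bs and Hba-a2, with log2 fold changes of -0.52 to 0.61 and adjusted p values of 0.086 to 0.996. At an unadjusted p under 0.05 these 8 lists had 3, 4, 4, 4, 5, 0, 4 and 1 genes, in that order, and DESeq2 called 1 gene each of the unfolded protein, p53 and metallothionein lists.

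Diet was also compared without DEN, which removes the tumor from the comparison. Whether the difference of DEN PT-WD from DEN L-CD differed from this diet difference was tested as the interaction of DEN with diet. The interaction also holds nearness to a tumor, which it cannot tell apart from diet. The 4 groups of these 2 comparisons share no library. In untreated liver 825 genes were called (5.28%), and for the interaction 430 (2.75%). Without nonDEN L-CD 2 these counts fell to 507 and 232, and without nonDEN L-CD 3 the interaction count fell to 258. Of the 297 genes called in DEN mice, 58 were called in the same direction in untreated mice, 19.5% of the 297 and 7.0% of the 825, and 50 of these were higher and 8 lower. The interaction was called for 33 of the 297 (11.1%).

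Cholesterol and macrophage genes showed no called interaction in their leading members. Idi1 fell by 1.70 in untreated mice and by 1.58 in DEN mice, with an interaction of 0.12 (adjusted p = 0.87). Of the 20 cholesterol enzymes 4 were called lower in untreated mice, the median there was -0.53, and none had a called interaction. Gpnmb rose by 3.14 and Mmp12 by 3.502 in untreated mice, with interactions of 0.73 (adjusted p = 0.74) and -0.26 (adjusted p = 0.88). Gpnmb held 11.7, 18.4 and 14.9 in nonDEN L-CD and 33.2, 366, 114.4 and 17.1 in nonDEN L-WD 1 to 4, so that library 2 carried most of the Western-diet mean of 132.7 and library 4 lay within the control-diet range. Of the 17 genes of that list 6 were called higher and 1 lower (Fabp5) in untreated mice, with a median of 0.93, and 1 interaction was called, Cd9 (1.38, adjusted p = 0.0014). Col3a1 rose by 1.39 in untreated mice and its interaction was -0.02 (adjusted p = 0.98).

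Of the called genes, those with the smallest interaction p were Osbpl3, Tmc5, Bmper, Gm31121 and Gpat3. Gpat3 changed by -0.07 (adjusted p = 0.86) in untreated mice, and the interaction was 1.74 (adjusted p = 0.0014). Osbpl3, an oxysterol-binding protein, rose in both, from 66.8 to 1219 in untreated mice (log2 fold change 4.19, SE 0.33) and from 690 to 1430 in DEN mice (1.05, SE 0.22), an interaction of -3.14 (adjusted p = 4.4e-05). Tmc5, a membrane channel-like protein, and Bmper, a BMP-binding secreted protein, had interactions of 6.87 (adjusted p = 0.00086) and 2.59 (adjusted p = 0.0011), and were lower on the Western diet in untreated mice and higher in DEN mice. The call of Tmc5 in DEN mice was lost under 6 alternatives, among them each DEN L-CD library left out, and that of Osbpl3 under 4. Gm31121, a non-coding RNA, went the other way, with an interaction of -4.29 (adjusted p = 0.0012). Mup18 had a log2 fold change of -0.17 in untreated mice (adjusted p = 0.82) and an interaction of -2.41 (adjusted p = 0.012), the 1 called interaction among the 21 Mup genes tested, and none was called among the 18 male-biased genes. The non-coding Gm13773 had an interaction of -2.31 (adjusted p = 0.0034). For Mup7 the interaction of -2.19 was not called (adjusted p = 0.25). Cyp2c69 and Cyp2c40 had interactions of 6.54 (adjusted p = 0.043) and 5.32 (adjusted p = 0.019).

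**Figure D5:**
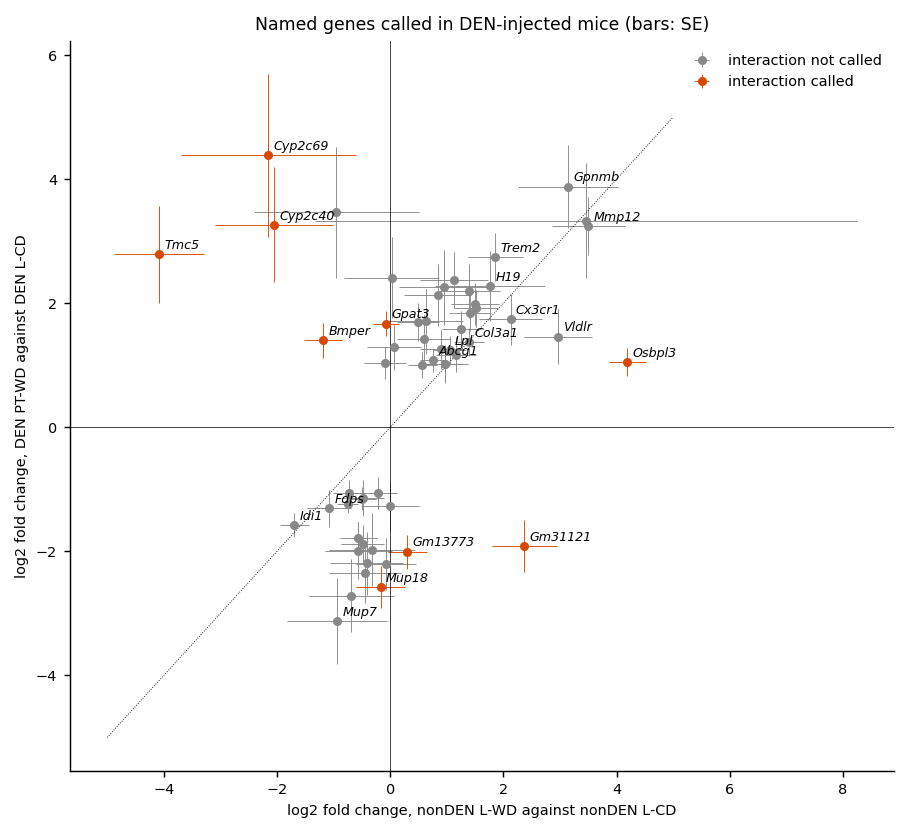
Log2 fold change by diet in untreated liver (x axis, nonDEN L-WD against nonDEN L-CD) and by diet together with nearness to a tumor in DEN mice (y axis, DEN PT-WD against DEN L-CD). Points are the named genes called in DEN mice except Gm10222, with SE bars. Orange points have a called interaction, and the dotted line marks equal change. Osbpl3 lies far to the right (4.19 against 1.05) and Tmc5 far to the left, while Gpnmb and Mmp12 lie near the line.

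In other lists more genes were called by diet in untreated liver than in DEN liver (these lists and genes were singled out after their values were seen). Over all genes the share called was also larger in untreated liver, at 5.28% against 1.90% in DEN liver, and it was 2.75% for the interaction. These shares count higher and lower genes as one, and no share for each direction in untreated liver is given. Of 23 acute phase genes 13 were called lower on the Western diet in untreated mice, while in DEN mice none was called lower and Orm3 higher, and 10 interactions were called. In the same untreated comparison 8 unfolded protein genes and 4 neutrophil and monocyte genes were also called lower. The chemokine Cxcl1 held 958, 4358 and 5242 in nonDEN L-CD 1 to 3 and 79.5 to 298.3 in nonDEN L-WD. The part of nonDEN L-CD 2 and 3 in these differences was not tested gene by gene. Steap4, an inflammation-induced metalloreductase, had means of 31396 and 6354 in untreated mice on the control and the Western diet, and of 6669 ± 2115 (SD, n = 4) and 5678 ± 1209 (SD, n = 8) in DEN mice (interaction 2.07, adjusted p = 0.0028). Cyp7a1, the rate-limiting enzyme of bile acid synthesis, had means of 591 and 8622 in untreated mice. It held 5914 to 9534 in DEN L-CD and 5402 to 18678 in DEN PT-WD (0.47, SE 0.32, adjusted p = 0.35), and the interaction was -3.40 (adjusted p = 0.00054). Cidea, a lipid droplet protein, had means of 21.1 and 1201 in untreated mice against 231 and 451 in DEN mice, where it was not called (0.96, SE 0.69, adjusted p = 0.38), and the interaction was -4.86 (adjusted p = 0.019). Of 19 pericentral genes 6 were called higher in untreated mice and 4 interactions were called. For Steap4 and Cyp7a1 the DEN L-CD mean lay nearer to the Western-diet mean of untreated mice than to their control-diet mean.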

How the data were processed

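Poly(A) RNA of 25 liver and tumor samples was made into libraries (KAPA mRNA HyperPrep) and sequenced by the authors, who used FastQC, STAR and RSEM on GRCm38. The versions of STAR and RSEM and the strand setting of the counting are not given in the sources used here, so reads of overlapping genes may be shared. The deposited files hold expected counts per gene and, from the authors, TPM values. FPKM values were not used. Of 48795 gene IDs 48349 were matched to symbols. Expected counts were rounded and scaled by TMM, and 15625 genes passed filterByExpr (minimum count 10). One model over the 5 groups and 25 libraries was fitted with edgeR 4.0.16 (quasi-likelihood test, R 4.3.3), with Benjamini-Hochberg adjustment over all genes. Normalized counts were scaled to the mean effective library size. A gene was called at an adjusted p of at most 0.05 and a log2 fold change of at least 1 in size. The script was checked on simulated data with known changes.

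The genes named were the 10 called genes with the largest increase and decrease (no overlap, at least 100 normalized counts), up to 4 called members of each of 35 lists or else 2 of highest level, the 5 smallest adjusted p values in each direction and the 5 smallest interaction p values. Other members of the lists and Mup genes named in the text were chosen after their values were seen. The comparison, the lists and this rule were chosen with earlier results of these data known. Expected counts per library were 23225238 to 38074411 in the 12 libraries, and intervals of counting error were not needed beside the larger spread of replicates. No library was a copy of another: the smallest chi-square per gene between replicates was 37.4. The sources do not state for every library that it came from a mouse of its own, so p values measure the spread between these samples. Groups were taken from the sample labels. DESeq2 1.42.0, its size factors, no filter on low counts, the compared groups alone, a replicate block, no minimum fold and each library left out were tried as alternatives. Leaving out DEN PT-WD 3 and 4 or DEN PT-WD 7 and 8 was added after the data were seen. Gene positions are from the GENCODE annotation of GRCm38, and promoter windows from RefSeq (GRCm38.p6), read and aligned with Biopython 1.88. Shared sequence was counted as 50-base words of annotated transcripts. Values of some genes that the naming rule covers are not reported here.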

Additional observations from a re-analysis of the deposited data

Results flagged for a closer look

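In 19 of 197 groups of values examined, 1 library stood far from the others of its group, where chance gives about 1 in 20 (9.8). The most came from control-diet library 2 (6), peritumoral library 7 (4) and control-diet library 3 (3). In normalized counts, DEN L-CD 2 held 324634 of Mup7, 14058 of Nudt7, 335 of Abcg1, 4798 of Cd5l, 15046 of Hbb-bs and 10234 of Hba-a2. In DEN PT-WD 7 the values were 1246 for Gpnmb, 783642 for Alb, 2188 for Ighm and 20178 for Gstm1. DEN L-CD 3 held 7291 of Gm10222, 4992 of Prss2 and 4847 of Ctrb1, the last 2 being pancreatic enzymes, and DEN PT-WD 1 held 11568 of Ctrb1. DEN L-CD 1 stood apart at 1069 for Itgb5 and 7345 for Ighm. Single values were 155.1 for Ccl5 in DEN PT-WD 3, 4703 for Acss2 in DEN PT-WD 6 and 774.5 for Orm3 in DEN PT-WD 8.

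For 12 named genes the difference of DEN PT-WD from DEN L-CD differed from the diet difference in untreated mice, by the interaction term of edgeR's test. The first difference holds diet and nearness to a tumor together. On the log2 scale the difference was positive for Tmc5 (6.87), Cyp2c69 (6.54), Cyp2c40 (5.32), Bmper (2.59), Gpat3 (1.74) and Plac8 (1.06). It was negative for Mup18 (-2.41), Gm13773 (-2.31), Osbpl3 (-3.14), Gm31121 (-4.29) and Themis (-4.68). The fitted value for Gm10222 (-10.58) rests on peritumoral counts near 0 and on reads shared with a mitochondrial gene, so it is no measure of size.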

How the results depend on the processing

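The 297 called genes became 352 with DESeq2, 289 with its size factors, 241 without a filter and 284 with the 2 groups alone. They became 1650 without a minimum fold, 187 without DEN PT-WD 3 and 4 and 296 without DEN PT-WD 7 and 8. Leaving out 1 library gave 173 (without DEN L-CD 3) to 437 (without DEN PT-WD 6). The 430 interaction calls became 1311 without a minimum fold and 232 (without nonDEN L-CD 2) to 600 (without nonDEN L-CD 1), with 258 without nonDEN L-CD 3. The 825 calls in untreated mice became 3626 without a minimum fold and 507 (without nonDEN L-CD 2) to 959. Of 57 called named genes 30 were called under every one of the 19 alternatives that gave a value (18 for Gm10222) and 0 reversed. A call was lost when either threshold failed. For Msmo1, Abcg1, Elovl3, Osbpl3 and H2-DMa only the fold failed, with an adjusted p of at most 0.0314 throughout. Of 42 not called, 3 were called under at least 1 alternative (Cd5l, Themis and Ighm), and 14 with values near 0 or, for the pancreatic genes Prss2 and Ctrb1, without DEN PT-WD 1, changed sign without a call. The causes were not tested.

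With the replicate number as a block, 290 genes were called (203 higher, 87 lower), of which 192 were among the 297, with 375 interaction calls and 863 in untreated mice. The numbers did not pair the samples: same-numbered libraries of the 2 groups had correlations of 0.003, 0.151, -0.203 and 0.227 in their deviations from the group means, across genes. The fewer control-diet libraries (4) limit precision. At levels near 3 counts per library the fitted folds are uncertain, because they rest on the small count that the model adds.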
